A study of Rattus norvegicus with 26 samples.

Results

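The 31 genes described here make cholesterol, sense it, carry it between cells or turn it over. They were chosen by name: 18 enzymes of synthesis, 5 regulators, 6 transport genes or carriers and 2 genes of turnover or storage. Their RNA was measured in the hippocampus of 26 male Fisher 344 rats aged 18 months, with 1 Affymetrix rat gene array per rat. All rats ate a purified diet for 5 to 6 months, and the groups differed in its vitamin D3 content. The low diet held 100 IU per kg (8 rats in 4 cages), the control diet 1000 IU per kg (9 rats in 5 cages) and the high diet 10000 IU per kg (9 rats in 5 cages). The rats were housed in pairs. Cages were inferred from numbers in the array descriptions, which the labels do not state to be cages. By that reading 12 of the 14 cages have both rats on the arrays. Cage mates were distinguished by a tail mark, and 1 further low-diet sample failed RNA quality control per the series design. Each rat is named by its subject number: 1 to 8 ate the low diet, 9 to 17 the control diet and 18 to 26 the high diet.

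Of the 31 genes, 29 had a probe set annotated with their symbol alone. Hmgcs1 was not analysed here for want of such a probe set, nor was Srebf1, whose probe set also carries Pemt. Stard4, a carrier of sterols within cells, lay below the intensity filter of 6.94 on the log2 scale (the median of all probe sets) and was not tested. Its values ran from 6.30 to 6.81 on the low diet, from 6.49 to 6.60 on the control diet and from 6.43 to 6.61 on the high diet. The 28 tested genes, 17 synthesis enzymes and 11 others, were fitted with all 8485 tested genes of the 14506 that had a probe set. A value is the log2 intensity of a gene's brightest probe set, and a difference of 1 on that scale would be a doubling. Values of different genes come from different probes, so levels are compared only between rats.

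Brain cholesterol is made in the brain itself, since the lipoproteins of blood hardly cross the blood-brain barrier. Cells build it from acetyl-CoA through mevalonate, isoprenoids, squalene and lanosterol. When sterols in the endoplasmic reticulum run low, Scap carries the SREBP transcription factors (the products of Srebf1 and Srebf2) to the Golgi, where they are cut and released to the nucleus, and they switch on the enzymes of synthesis together. The Insig proteins hold Scap back when sterols are plentiful. Astrocytes pass cholesterol to neurons on apolipoprotein E loaded by Abca1 and Abcg1, and oligodendrocytes place much of it in myelin. Neurons clear the excess through Cyp46a1, whose product can leave the brain. One sterol of the last steps, 7-dehydrocholesterol, is both the substrate of Dhcr7 and, in skin, the precursor of vitamin D3.

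Of 8 hippocampal neuron markers, 7 had a probe set, and all 7 lay above the filter, as did all 5 markers of neighbouring cortex. The hippocampal markers had lower means on the high than on the low diet in 7 of 7 (median difference -0.053, lowest -0.24, 1 at an unadjusted p under 0.05) and than on the control diet in 6 of 7. Their mean per rat ran from 10.75 to 11.17 on the high diet, from 10.81 to 11.22 on the control diet and from 11.05 to 11.21 on the low diet. The array medians lay between 6.92 and 6.96, and each array's mean correlation with the others between 0.997 and 0.998. With limma and Benjamini-Hochberg adjustment over 8485 genes, 0 genes were called at an adjusted p under 0.17 in each of the 3 pairwise comparisons and in the F-test over diets. That is 0% of tested genes each time. Genes with an unadjusted p under 0.05 numbered 613 between the high and low diets, 393 between high and control, 193 between low and control and 392 in the F-test. Without moderation of the variances the same 4 counts were 608, 400, 201 and 376, and 0 genes were called. Of the markers of other cells and of neighbouring tissue 0 were called, so counts at an unadjusted p under 0.05 are given. Of 7 astrocyte markers 1 was lower at that p on the high than on the control diet. Likewise 1 was lower at that p on the low than on the control diet, and 0 were at that p between high and low. The tested markers of neurons in general, oligodendrocyte precursors, myelin and microglia numbered 0 at that p in each comparison. All 5 neighbouring-cortex markers had higher means on the high than on the low diet, each at an unadjusted p under 0.05. The differences ran from 0.095 to 0.515, with a median of 0.115. Compared with control, all 5 markers again had higher means on the high diet (median difference 0.148), 4 of them at that p. Their mean per rat ran from 9.75 to 10.20 on the high diet (median 10.09), from 9.73 to 10.05 on the control diet (9.89) and from 9.76 to 9.96 on the low diet (9.88). All 8 blood vessel markers above the filter (Cdh5 was below it) had lower means on the high than on the low diet, 4 of them at an unadjusted p under 0.05. Against the control diet all 8 again had lower means on the high diet, with a median difference of -0.096 and 4 at that p. The vessel mean per rat covers all 9 markers with a probe set, Cdh5 included. It ran from 8.12 to 8.25 on the high diet, from 8.19 to 8.32 on the control diet and from 8.17 to 8.31 on the low diet. The 7 myelin markers with a probe set ran from 11.67 to 11.92 on the high diet, from 11.67 to 11.92 on the control diet and from 11.65 to 11.97 on the low diet. Choroid plexus markers were mostly dim: Kl, Folr1, Clic6 and Kcnj13 lay below the filter. The mean per rat over all 5 was uneven, from 5.88 to 8.97 on the control diet (median 6.47). It ran from 5.90 to 7.40 on the high diet and from 6.12 to 6.87 on the low diet. Ttr, the 1 tested, differed by -0.28 between high and low, -0.52 between high and control and -0.24 between low and control. None of the 3 had an unadjusted p under 0.05. The part of these markers in the differences described for the cholesterol genes was not tested. In whole tissue, fewer cells of a type and less RNA per cell cannot be told apart.

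Whether dietary vitamin D3 moved the pathway was asked first between the extremes of dose. On the high diet 15 of 17 synthesis enzymes had a higher mean than on the low diet, against 55.2% of all tested genes, and none of the 17 differences passed the test. Their median difference was 0.058 on the log2 scale, and they ran from -0.026 to 0.16. The median over all tested genes was 0.0053. The other 11 genes of sterol regulation, transport and turnover had a median difference of 0.0054, with 8 of 11 higher. Among the 28 tested members 5 had an unadjusted p under 0.05, all of them synthesis enzymes with higher means on the high diet. Over all genes 7.22% did. Those 5 were Dhcr7, Sc5d, Nsdhl, Fdps and Msmo1, and 4 of them act between squalene and cholesterol.

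Dhcr7, which reduces 7-dehydrocholesterol to cholesterol (probe set 10712560), had the lowest p among the members. Its value ran from 8.25 to 8.72 on the low diet (median 8.48), from 8.48 to 8.73 on the control diet (median 8.58) and from 8.44 to 8.77 on the high diet (median 8.65). The groups overlapped: 8 of 9 high-diet rats lay above the low-diet mean, but only 1 lay above every low-diet rat, and 3 of 8 low-diet rats lay below every high-diet rat. The means were 8.47 ± 0.17 (SD, n = 8) on the low diet and 8.63 ± 0.11 (SD, n = 9) on the high diet. The difference of 0.16 (SE 0.056, 95% interval 0.042 to 0.27, a ratio of 1.11) had an unadjusted p of 0.00929 and an adjusted p of 0.674 with limma.

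Sc5d, the desaturase that acts just before Dhcr7 (probe set 10916534), ran from 12.02 to 12.17 on the low diet (median 12.13), from 12.06 to 12.19 on the control diet (median 12.13) and from 12.12 to 12.24 on the high diet (median 12.18). It showed the least overlap of the 5: all 9 high-diet rats lay above the low-diet mean of 12.12, and 5 of 9 lay above every low-diet rat. The difference was 0.061 (SE 0.024, 95% interval 0.012 to 0.11), with an unadjusted p of 0.0170 and an adjusted p of 0.679. Nsdhl, one of the enzymes that strip methyl groups from lanosterol's products (probe set 10935845), ran from 10.96 to 11.17 on the low diet (median 11.05), from 11.00 to 11.15 on the control diet (median 11.08) and from 11.05 to 11.20 on the high diet (median 11.15). Here 4 of 8 low-diet rats lay below every high-diet rat. The difference was 0.070 (SE 0.029, 95% interval 0.011 to 0.13; unadjusted p 0.0226, adjusted p 0.680). Msmo1, which oxidises those methyl groups (probe set 10787841), ran from 11.21 to 11.44 on the low diet (median 11.36), from 11.31 to 11.47 on the control diet (median 11.41) and from 11.35 to 11.47 on the high diet (median 11.39). All 9 high-diet rats lay above the low-diet mean of 11.34, and 4 of 8 low-diet rats lay below every high-diet rat. The difference was 0.062 (SE 0.030, 95% interval 0.0011 to 0.12; unadjusted p 0.0462, adjusted p 0.680).

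Among the other enzymes that form squalene or act after it, Hsd17b7, a ketone reductase of the same steps, differed by 0.085 (unadjusted p 0.0521). Tm7sf2, a sterol reductase, differed by 0.061, Fdft1, which joins isoprenoids into squalene, by 0.058, Sqle, which oxidises squalene, by 0.057, Cyp51, which removes the first methyl group, by 0.055 and Ebp, a sterol isomerase, by 0.013. Lss, the cyclase that forms lanosterol, was the 1 enzyme of these 11 with a lower mean on the high diet, by a difference of -0.025 (SE 0.032, 95% interval -0.090 to 0.040). Its values ran from 9.50 to 9.78 on the low diet and from 9.54 to 9.74 on the high diet, so that 6 of 9 high-diet rats lay below the low-diet mean.

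Of the enzymes that lead from acetyl-CoA to isoprenoids, 5 of 6 had a higher mean on the high diet, with a median difference of 0.046. Fdps, which makes farnesyl diphosphate (probe set 10940465), ran from 10.75 to 11.10 on the low diet (median 10.85), from 10.79 to 11.06 on the control diet (median 10.96) and from 10.83 to 11.14 on the high diet (median 10.94). Of the low-diet rats 3 of 8 lay below every high-diet rat, while low-diet rat 8 stood at 11.10, above 8 of the 9. The difference was 0.10 (SE 0.047, 95% interval 0.0051 to 0.20; unadjusted p 0.0398, adjusted p 0.680). The isomerase Idi1 differed by 0.075, the thiolase Acat2 by 0.057, mevalonate kinase (Mvk) by 0.036 and the decarboxylase Mvd by 0.0028. Pmvk, the next kinase after Mvk, differed by -0.026 (95% interval -0.11 to 0.056), with 7 of 9 high-diet rats below the low-diet mean.

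**Figure D1:**
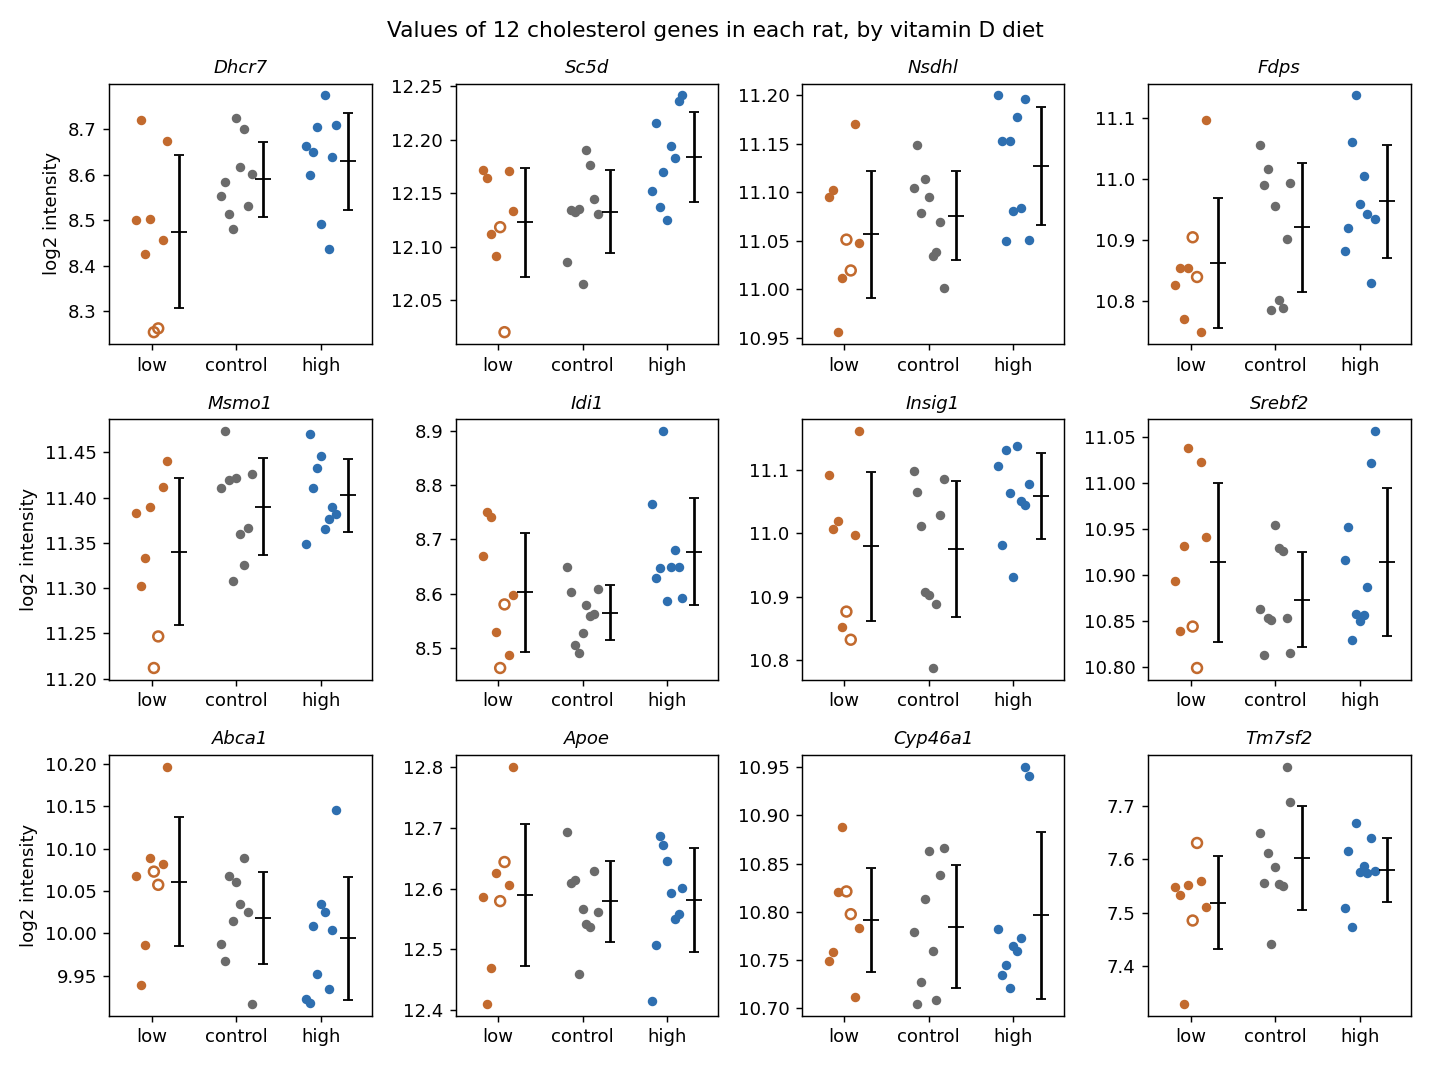
Log2 intensity (y axis) of 12 genes in each of 26 rats by diet (x axis); bars give the mean ± SD, and open circles mark low-diet rats 5 and 6. Every gene shows overlap between diets, and in Dhcr7 the 2 open circles, at 8.25 and 8.26, lie below all other rats.

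A single cage carried much of the low end. Low-diet rats 5 and 6 shared a cage number and had the lowest Dhcr7 of all 26 rats, 8.25 and 8.26. Their means over the 17 enzymes, 9.35 and 9.40, were also the lowest of all, followed by 9.43 in low-diet rat 3, which lived in another cage. Rat 5 was the lowest of 26 rats in 8 enzymes and below the median in 16 of 17, and rat 6 was the lowest in 2 and below the median in 15. The mean over the other 11 members did not set them apart: it was 10.62 in rat 5 and 10.56 in rat 6, within the low-diet range of 10.52 to 10.66. The mean over 6 microglia markers, of which Aif1 and Itgam lay below the filter, was 8.77 in one of these 2 rats. It was 9.23, the highest of all 26 rats, in the other. The mean over myelin markers was 11.86 in one and 11.65, the lowest of all 26 rats, in the other. The part of these markers in the low enzyme values was not tested. Over the enzymes the low-diet mean per rat ran from 9.35 to 9.53 (median 9.48), the control-diet mean from 9.44 to 9.52 (9.49) and the high-diet mean from 9.48 to 9.55 (9.52). The SD over low-diet rats exceeded that over high-diet rats in 14 of 17 enzymes, 8 of 11 other members and 57.7% of all genes.

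Without the cage of rats 5 and 6, a choice made after the values were seen, 13 of 17 enzymes had a higher mean on the high diet (56.2% of all genes), with a median difference of 0.030. No member then had an unadjusted p under 0.05, compared with 6.73% of all genes. Dhcr7 differed by 0.084 (unadjusted p 0.112, adjusted p 0.755), Sc5d by 0.043 (unadjusted p 0.0897), Msmo1 by 0.026 (unadjusted p 0.368), Nsdhl by 0.063 (unadjusted p 0.0625) and Fdps by 0.10 (unadjusted p 0.0572). With cage as a random block over all rats (a consensus correlation of 0.136 between cage mates) 3 members had an unadjusted p under 0.05, Dhcr7 (0.0155), Sc5d (0.0230) and Nsdhl (0.0336). Leaving out 1 rat at a time, the count of members at that p became 2 without low-diet rat 6, 3 without high-diet rat 21 and 8 without low-diet rat 8.

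**Figure D2:**
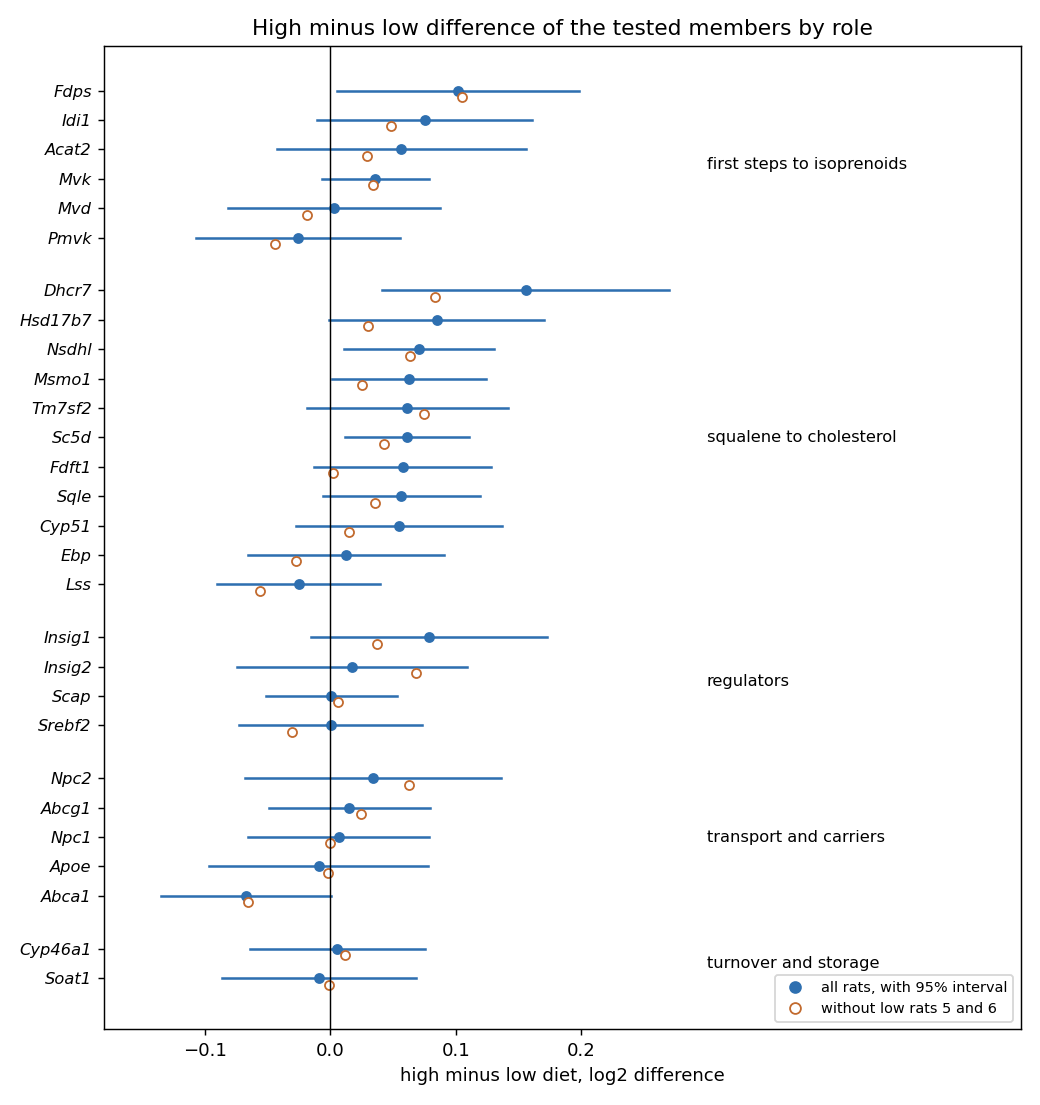
Difference of the high-diet and low-diet means for each tested gene on the log2 scale (x axis) with its 95% interval; open orange points give the difference without low-diet rats 5 and 6. The filled points of 15 of 17 enzymes lie above 0, Dhcr7 moves from 0.16 to 0.084 without that cage, and Abca1 has the lowest difference, -0.067.

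**Figure D3:**
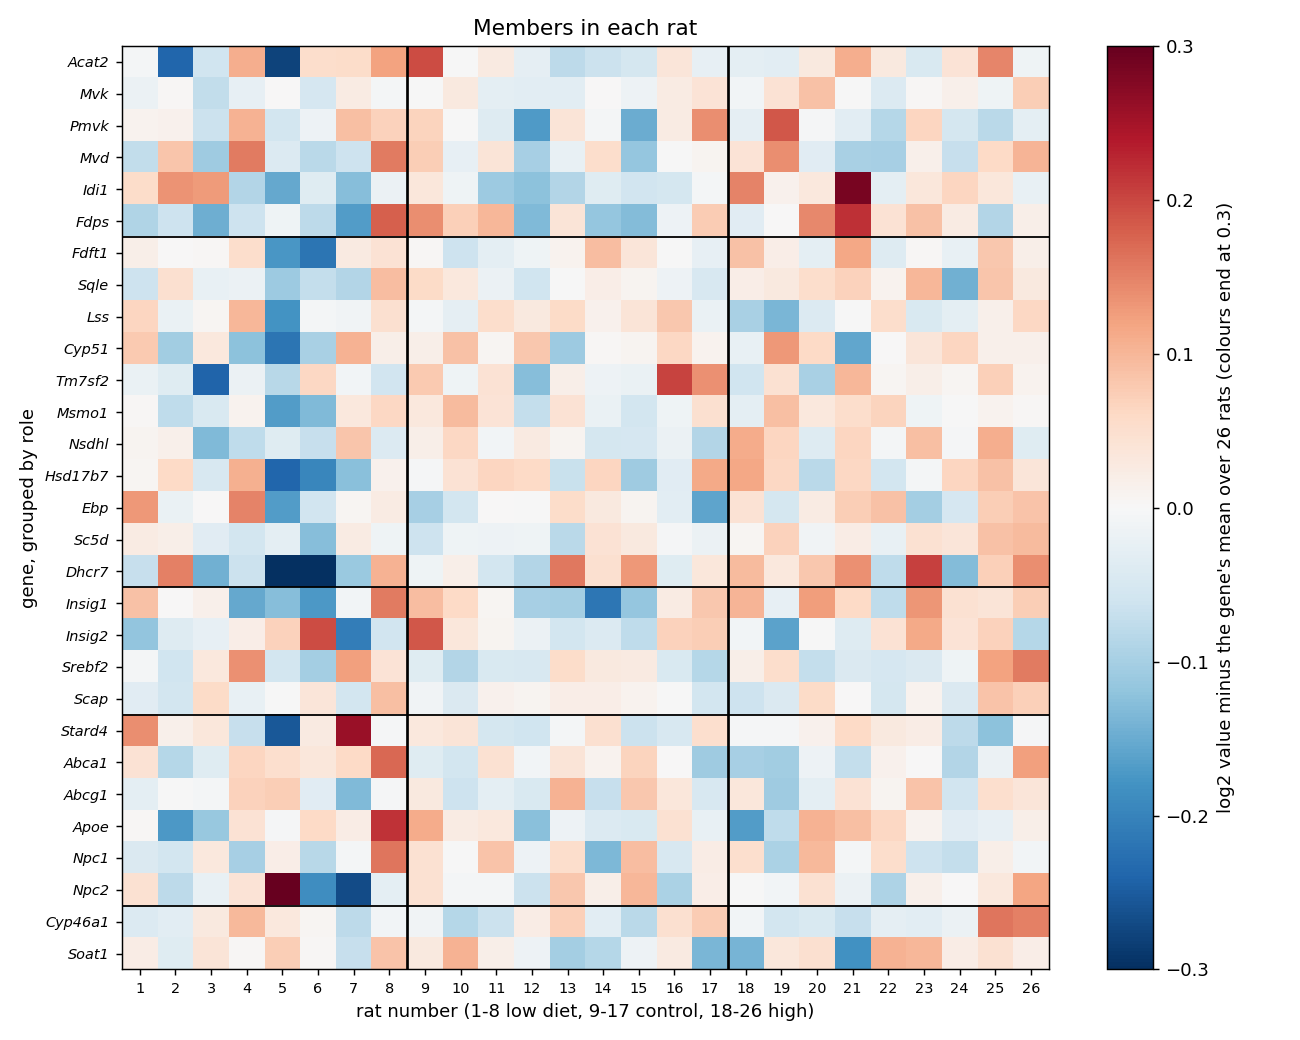
Log2 value of each of 29 genes (rows) in each of 26 rats (columns, by diet) relative to the gene's mean over all rats, with colours ending at 0.3 above and below. The columns of low-diet rats 5 and 6 are below the gene mean in most synthesis enzymes, and their rows for regulators, transport and turnover genes are mixed.

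The SREBP factors act on promoters together with NF-Y and SP1, which bind a CCAAT box and a GC box, so the sequences ahead of 5 enzymes that had an unadjusted p under 0.05 in a comparison of diets are printed here: Dhcr7, Sc5d, Msmo1 and Fdps from the high and low diets, and Idi1 from the high and control diets. Nsdhl's listed window does not begin at the outer end of its gene and is not printed. Tm7sf2, which had an unadjusted p under 0.05 between the low and control diets, is not printed either. Each printed stretch is the 150 bases before the gene's start in RefSeq, build GRCr8, written 5′ to 3′ on the gene's strand. Capitals mark CCAAT or its reverse complement ATTGG, and GGGCGG or its reverse complement CCGCCC. The stretches lie at chr1:208444284-208444433 (plus strand) for Dhcr7, chr8:51538278-51538427 (minus strand) for Sc5d, chr16:29746963-29747112 (plus strand) for Msmo1, chr2:176804817-176804966 (minus strand) for Fdps and chr17:66547525-66547674 (minus strand) for Idi1.
Dhcr7: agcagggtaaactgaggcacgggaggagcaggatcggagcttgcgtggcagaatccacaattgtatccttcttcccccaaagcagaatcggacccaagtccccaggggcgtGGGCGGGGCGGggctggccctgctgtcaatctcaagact
Sc5d: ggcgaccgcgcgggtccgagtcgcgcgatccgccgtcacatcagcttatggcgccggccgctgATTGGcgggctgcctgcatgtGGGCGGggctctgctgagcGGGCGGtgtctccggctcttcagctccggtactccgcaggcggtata
Msmo1: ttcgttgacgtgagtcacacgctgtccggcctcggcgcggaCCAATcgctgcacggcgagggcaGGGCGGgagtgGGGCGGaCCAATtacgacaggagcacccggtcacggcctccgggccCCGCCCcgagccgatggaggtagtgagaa
Fdps: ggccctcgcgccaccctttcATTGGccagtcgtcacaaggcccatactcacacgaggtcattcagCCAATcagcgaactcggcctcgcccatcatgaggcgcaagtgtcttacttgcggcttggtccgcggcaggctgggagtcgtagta
Idi1: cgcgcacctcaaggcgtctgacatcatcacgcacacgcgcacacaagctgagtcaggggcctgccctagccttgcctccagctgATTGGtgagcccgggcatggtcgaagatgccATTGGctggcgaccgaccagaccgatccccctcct

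Positions are counted from the gene's start, with -1 the base before it, and are those of a box's leftmost letter. In these stretches Dhcr7 holds a pair of overlapping GC boxes, at -39 and -34, and no CCAAT box. Sc5d holds 1 CCAAT box, at -87, with GC boxes at -66 and -47. Msmo1 holds CCAAT boxes at -109 and -68, Fdps at -130 and -85 and Idi1 at -66 and -35. Promoter windows of 300 bases, from 250 before to 50 after the start, were found for 26 of the 31 genes. Some genes have several windows, and a gene was counted if any of its windows held the motif. Nsdhl's listed window is among those counted. CCAAT on either strand was found for 20 of 26 (76.9%), 12 of 15 synthesis enzymes (80.0%) and 8 of 11 other members (72.7%). The share was 39.6% of all 27457 genes with a window and 38.7% of the genes tested here that had one. GGGCGG on either strand was found for 23 of 26 (88.5%), against 36.0% of all genes with a window and 65.1% of tested genes with one. The 2 motifs do not overlap in letters, and a match describes the window only. The sterol regulatory element was also planned as a motif, but no search for it is given here. The boxes counted here therefore do not show sites of SREBP.

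Among the regulators, all 4 tested genes had a higher mean on the high than on the low diet, although Srebf2 did so by only 0.00033 and by -0.0084 under quantile normalization. The median difference was 0.0090. Insig1, itself a target of SREBP and a brake on it, accounted for the highest. By its brighter probe set (10859880) it ran from 10.83 to 11.16 on the low diet (median 11.00), from 10.79 to 11.10 on the control diet (median 11.01) and from 10.93 to 11.14 on the high diet (median 11.06). All 9 high-diet rats lay within the low-diet range, though 8 of 9 were above its mean. The difference was 0.079 (SE 0.046, 95% interval -0.016 to 0.17; unadjusted p 0.0982, adjusted p 0.747). A second Insig1 probe set (10861986) ran from 9.36 to 9.61 on the low diet and from 9.44 to 9.67 on the high diet, with a difference of 0.053, and correlated with the first at r = 0.595 over 26 rats. Srebf2, which encodes the SREBP that chiefly drives sterol synthesis (probe set 10898091), ran from 10.80 to 11.04 on the low diet (median 10.91), from 10.81 to 10.95 on the control diet (median 10.85) and from 10.83 to 11.06 on the high diet (median 10.89). The high and low diets had the same mean, 10.91, and the difference had a 95% interval of -0.073 to 0.073 (unadjusted p 0.993). Scap differed by 0.00078 (95% interval -0.051 to 0.053), and Insig2 by 0.017 (95% interval -0.074 to 0.11).

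Of the 5 tested transport genes and carriers, 3 had a higher and 2 a lower mean on the high diet, with a median difference of 0.0066. Abca1, the exporter that loads apolipoprotein E and a target of the sterol-activated liver X receptors (probe set 10876769), ran from 9.94 to 10.20 on the low diet (median 10.07), from 9.92 to 10.09 on the control diet (median 10.03) and from 9.92 to 10.15 on the high diet (median 10.00). On the high diet 8 of 9 rats lay below the low-diet mean of 10.06 and 3 lay below every low-diet rat. The difference was -0.067 (SE 0.033, 95% interval -0.13 to 0.00083), the lowest among the members, with an unadjusted p of 0.0527 and an adjusted p of 0.681. It was -0.066 without rats 5 and 6. Its partner Abcg1 differed by 0.015 (95% interval -0.049 to 0.079). Apoe (probe set 10719530) ran from 12.41 to 12.80 on the low diet (median 12.60), from 12.46 to 12.69 on the control diet (median 12.57) and from 12.41 to 12.69 on the high diet (median 12.59). The high-diet range lay within the low-diet range, and the difference was -0.0091 (SE 0.043, 95% interval -0.096 to 0.078; unadjusted p 0.832). Of the lysosomal exporters, Npc1 differed by 0.0066 (95% interval -0.065 to 0.079) and Npc2 by 0.034 (95% interval -0.068 to 0.14). Npc2 was spread more widely on the low diet, from 10.53 to 11.11, than on the high diet, from 10.70 to 10.91, and its highest value came from rat 5.

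Neither gene of turnover or storage passed the test between diets. Cyp46a1 (probe set 10886740) ran from 10.71 to 10.89 on the low diet (median 10.79), from 10.70 to 10.87 on the control diet (median 10.78) and from 10.72 to 10.95 on the high diet (median 10.76). Of the high-diet rats 7 of 9 lay below the low-diet mean and 2 above every low-diet rat, and the difference was 0.0054 (SE 0.034, 95% interval -0.064 to 0.075; unadjusted p 0.875). Soat1, which esterifies cholesterol for storage, differed by -0.0091 (SE 0.038, 95% interval -0.086 to 0.068).

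The second question was whether the high diet differed from the control diet. This comparison shares its high-diet rats with the first. Of the 17 synthesis enzymes 14 had a higher mean on the high diet, against 50.6% of all genes, with a median difference of 0.025 beside 0.00043 over all genes. The other 11 members had a median of 0.0071, with 7 higher. At an unadjusted p under 0.05 there were 2 members, Idi1 and Sc5d, against 4.63% of all genes. Without control-diet rat 10 there were 4, and without any 1 of control-diet rat 13 and high-diet rats 19, 23 and 25 there was 1.

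Idi1, which isomerises the first isoprenoid unit (probe set 10799241), ran from 8.49 to 8.65 on the control diet (median 8.56), from 8.59 to 8.90 on the high diet (median 8.65) and from 8.46 to 8.75 on the low diet (median 8.59). All 9 high-diet rats lay above the control-diet mean of 8.57 ± 0.051 (SD, n = 9), and 3 lay above every control-diet rat. The difference was 0.11 (SE 0.041, 95% interval 0.029 to 0.20, a ratio of 1.08; unadjusted p 0.0100, adjusted p 0.9997). For Sc5d, 8 of 9 high-diet rats lay above the control-diet mean of 12.13 and 4 above every control-diet rat. Its difference was 0.051 (SE 0.023, 95% interval 0.0033 to 0.099; unadjusted p 0.0370, adjusted p 0.9997). Insig1 differed by 0.083 (SE 0.045, 95% interval -0.0082 to 0.17) and Nsdhl by 0.051 (SE 0.028, 95% interval -0.0069 to 0.11).

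Lower means on the high than on the control diet were found for Lss, by a difference of -0.049 (SE 0.031, 95% interval -0.11 to 0.014), with 5 of 9 high-diet rats below every control-diet rat. Abca1 differed by -0.024 (SE 0.032), Insig2 by -0.023 (SE 0.043) and Tm7sf2 by -0.023 (SE 0.038), each with an interval that includes 0. Dhcr7, lowest in p between the extremes of dose, differed by 0.040 here (SE 0.054, 95% interval -0.070 to 0.15; unadjusted p 0.461). Srebf2 differed by 0.041 (SE 0.034), Apoe by 0.0018 (SE 0.041) and Cyp46a1 by 0.012 (SE 0.033).

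The third question was whether the low diet differed from the control diet. Of the 17 synthesis enzymes 13 had a lower mean on the low diet, 10 of them among the 11 that form squalene or act after it. Over all genes 44.1% had a higher mean on the low diet, against 4 of 17 enzymes. The median difference of the enzymes was -0.027, beside -0.0044 over all genes and 0.0063 over the other 11 members, of which 7 were higher. At an unadjusted p under 0.05 there were 2 members, Tm7sf2 and Dhcr7, both lower on the low diet, against 2.27% of all genes. With cage as a random block there were 0 (Tm7sf2 at 0.0536, Dhcr7 at 0.0631). The count of 2 became 0 without low-diet rat 3 and without control-diet rat 17, and 1 without any 1 of low-diet rats 1, 5, 6 and 7, control-diet rats 9 to 11 and 13 to 16, and high-diet rats 18 to 21, 25 and 26.

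Tm7sf2 (probe set 10728123) ran from 7.33 to 7.63 on the low diet (median 7.54), from 7.44 to 7.77 on the control diet (median 7.59) and from 7.47 to 7.67 on the high diet (median 7.58). On the low diet 7 of 8 rats lay below the control-diet mean of 7.60 ± 0.097 (SD, n = 9), but 1 lay below every control-diet rat. The difference was -0.084 (SE 0.039, 95% interval -0.16 to -0.0036; unadjusted p 0.0411, adjusted p 0.9997). For Dhcr7, 6 of 8 low-diet rats lay below the control-diet mean of 8.59 ± 0.082 (SD, n = 9) and 4 below every control-diet rat. Its difference was -0.12 (SE 0.056, 95% interval -0.23 to -0.0011; unadjusted p 0.0479, adjusted p 0.9997).

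Msmo1 differed by -0.050 (SE 0.030) and Hsd17b7 by -0.068 (SE 0.042). Higher means on the low diet were found for Abca1, by 0.043 (SE 0.033, 95% interval -0.025 to 0.11), Srebf2, by 0.040 (SE 0.036), Ebp, by 0.036 (SE 0.038), and Soat1, by 0.035 (SE 0.038). Insig1 differed by 0.0046, Apoe by 0.011 and Cyp46a1 by 0.0068, all within 0.3 SE. Without the cage of rats 5 and 6 the enzymes were lower on the low diet in 10 of 17 with a median difference of -0.0060. Over all genes 42.1% were then higher on the low diet. Dhcr7 then differed by -0.043 (unadjusted p 0.404) and Tm7sf2 by -0.097 (unadjusted p 0.0300). Tm7sf2 was 1 of 2 enzymes then at an unadjusted p under 0.05. The other was Ebp, higher on the low diet by 0.076 (unadjusted p 0.0484). Of the other 11 members 1 was at that p, Insig2, which differed by -0.091 (unadjusted p 0.0398). Over all genes 2.56% were.

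The moderated F-test over the 3 diets gave an unadjusted p under 0.05 for 3 members, Dhcr7 (0.0265), Idi1 (0.0308) and Sc5d (0.0341), against 4.62% of all genes, and an adjusted p of 0.998 for each. The means of Dhcr7 were 8.47, 8.59 and 8.63 on the low, control and high diets. Those of Sc5d were 12.12, 12.13 and 12.18, and those of Idi1 8.60, 8.57 and 8.68. In Dhcr7 the low-diet mean lay farthest from the other 2, and in Sc5d and Idi1 the high-diet mean did. The count of 3 became 5 without low-diet rat 2, low-diet rat 8 or high-diet rat 24, and 1 without the cage of rats 5 and 6.

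Other genes of sterol handling were read from a list of 40, of which 30 had a probe set and 26 were tested. Between the high and low diets 13 had a higher and 13 a lower mean, with a median difference of 0.0012 and 0 at an unadjusted p under 0.05. Erlin1, an endoplasmic reticulum protein that binds sterols and restrains SREBP, differed most, by -0.067 (SE 0.038, 95% interval -0.15 to 0.011). Between the high and control diets Lipa, the lysosomal lipase, differed by 0.051 (SE 0.032), the exporter Abcg4 by 0.039 (SE 0.026) and the sterol-binding protein Tmem97 by -0.058 (SE 0.039), none with an unadjusted p under 0.05.

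Fatty acid synthesis genes, the other set of SREBP targets, were read from a list of 10, all of them tested. Each of the 10 had a higher mean on the high than on the low diet, against 55.2% of all genes. Their median difference was 0.047, and 1 had an unadjusted p under 0.05, against 7.22% of all genes. On the low diet each had a lower mean than on the control diet, with a median of -0.035 and 1 at that p, against 2.27% of all genes. Over all genes 44.1% had a higher mean on the low than on the control diet. Between the high and control diets 6 of 10 were higher, against 50.6% of all genes, with a median of 0.0028. These comparisons share rats. Acss2, which makes acetyl-CoA from acetate, had a mean of 10.14 ± 0.057 (SD, n = 8) on the low diet, 10.20 ± 0.046 (SD, n = 9) on the control diet and 10.20 ± 0.048 (SD, n = 9) on the high diet. It differed by 0.064 between high and low (SE 0.026, 95% interval 0.0098 to 0.12; unadjusted p 0.0222, adjusted p 0.680) and by -0.063 between low and control (SE 0.026; unadjusted p 0.0232). The elongase Elovl6 differed by 0.067 between high and low (SE 0.037). Between low and control the desaturase Scd differed by -0.084 (SE 0.056) and Acly, which makes cytosolic acetyl-CoA, by -0.042 (SE 0.033). Rats 5 and 6 ranked 1 and 3 of 26, counted from the lowest, in their mean over these genes, and low-diet rat 3 ranked 2. Without the cage of rats 5 and 6, 8 of 10 were higher on the high than on the low diet (median 0.023), against 56.2% of all genes. Then 6 of 10 were lower on the low than on the control diet, while 42.1% of all genes were higher on the low diet.

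How the members varied together from rat to rat was described by Pearson's r over 26 rats after each diet's mean was removed. Such correlations share the arrays' own differences in quality and tissue, and cage mates count as separate rats. The 136 pairs of synthesis enzymes had a median r of 0.189, and 106 pairs were above 0 (77.9%). The 55 pairs of other members had a median of 0.186, and the 187 pairs that join an enzyme to another member 0.039. Over all pairs of tested genes the median was 0.041, with 56.0% above 0. Enzymes and fatty acid genes had a median of 0.217 over 170 pairs, and fatty acid genes with each other 0.248 over 45 pairs. The difference between these medians was not tested.

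**Figure D4:**
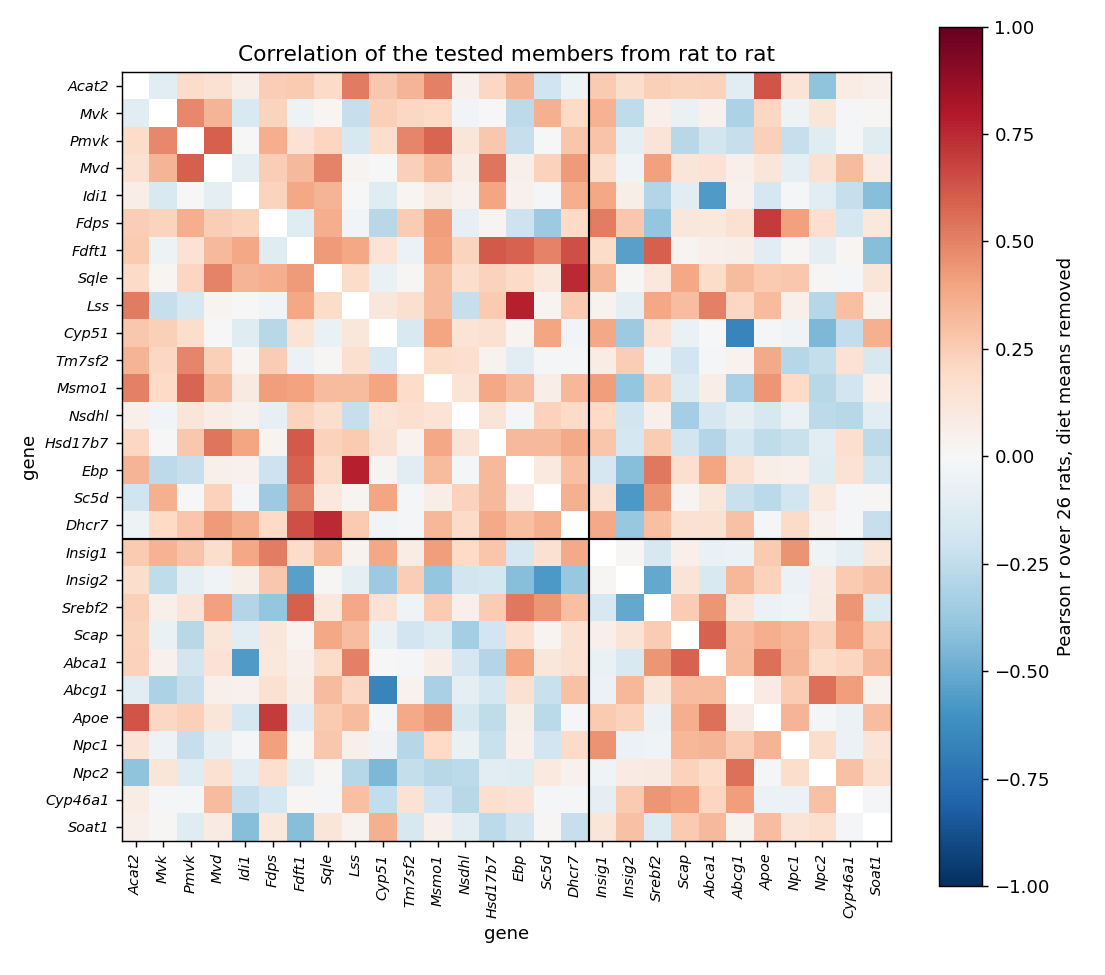
Pearson's r between each pair of 28 tested genes over 26 rats with diet means removed (colour scale), with black lines between the synthesis enzymes and the other genes. The enzyme block holds mostly positive values, with a median of 0.189, and the block that joins enzymes to the other genes is mixed, with a median of 0.039.

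The strongest pairs, picked after their values were seen, were Lss with Ebp (r = 0.775, rho = 0.783), Sqle with Dhcr7 (r = 0.745, rho = 0.663), Fdps with Apoe (r = 0.698, rho = 0.677) and Fdft1 with Dhcr7 (r = 0.644, rho = 0.579). The most negative were Cyp51 with Abcg1 (r = -0.658, rho = -0.555), Sc5d with Insig2 (r = -0.575, rho = -0.497) and Idi1 with Abca1 (r = -0.564, rho = -0.613). Of the regulators, Insig1 had the highest median r with the 17 enzymes, 0.276, then Srebf2 with 0.241, while Insig2 had the lowest, -0.177.

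Correlations of 6 pairs were tested by permutation of 26 rats, and none passed after adjustment over the 6. Dhcr7 and Sc5d, neighbours in the pathway, had r = 0.355 (permutation p 0.0738, adjusted 0.168) and rho = 0.291 (permutation p 0.149, adjusted 0.223), and r was 0.326 after the 2 rats farthest out in the first gene were left out. Their r was 0.212 without the cage of rats 5 and 6, and 0.579 over the means of 14 cages (permutation p 0.0284, adjusted 0.170). Sqle and Idi1 had r = 0.342 (permutation p 0.0878, adjusted 0.168) and rho = 0.401 (permutation p 0.0426, adjusted 0.223), with r = 0.505 without the 2 farthest rats. Sqle and Insig1 had r = 0.330 (permutation p 0.0980, adjusted 0.168) and rho = 0.305 (permutation p 0.130, adjusted 0.223), with r = 0.259 without the 2 farthest. Abca1 and Abcg1, the paired exporters, had r = 0.319 (permutation p 0.112, adjusted 0.168) and rho = 0.352 (permutation p 0.0802, adjusted 0.223), with r = 0.352 without the 2 farthest. The lysosomal partners Npc1 and Npc2 had r = 0.173 (permutation p 0.397, adjusted 0.477) and rho = 0.227 (permutation p 0.264, adjusted 0.317), with r = 0.239 without the 2 farthest and r = -0.419 over the means of 14 cages (permutation p 0.135). Sqle and Srebf2 had r = 0.106 (permutation p 0.612, adjusted 0.612) and rho = 0.115 (permutation p 0.577, adjusted 0.577), with r = 0.040 without the 2 farthest.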

How the data were processed

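Hippocampal RNA was extracted with TRIzol and put on Affymetrix rat gene arrays per the labels' protocols. The authors deposited log2 intensities per probe set; Partek 6.6 and GCRMA are named, with no role, in the submitters' processing notes. It has 29214 probe sets, of which 15310 carry 1 gene symbol, 323 several and 13581 none. The brightest single-symbol probe set stood for a gene, and genes with a mean at or above 6.94 were tested. One-way models with diet as the factor were fitted in R 4.3.3 (limma 3.58.1), with 2-sided tests, Benjamini-Hochberg adjustment over all tested genes and calls at an adjusted p under 0.17, the stricter rate of the series design. The number of arrays limits precision. The procedure was tested on simulated data: between the high and low diets, among 8485 genes, calls were made for 64 of 67 genes shifted by 0.25, 67 of 67 shifted by 0.5, 66 of 66 shifted by 1 and 42 with no shift. The simulated noise was independent between rats and between genes, with no cage effect. The enzyme differences between high and low, -0.026 to 0.16, lie below the smallest simulated shift. The simulation therefore gives no rate of calls for differences of their size.

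Members and lists were chosen with earlier results of these data known. Named with full statistics in each comparison were up to 4 members per direction of smallest unadjusted p, always Dhcr7, Insig1, Srebf2, Abca1, Apoe and Cyp46a1, and from the other lists the 3 genes of smallest p. Of 6 planned pairs 3 held Hmgcs1 and were replaced by Sqle pairs after the data were seen. Cages were inferred from numbers in the array descriptions, which the labels do not name as cages. Alternatives changed the filter, probe set choice, normalization, block, weights, moderation, threshold and rats. Promoter sequences are RefSeq's (GRCr8).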

Additional observations from a re-analysis of the deposited data

Results flagged for a closer look

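In 5 of 87 groups of one gene's values on one diet, the highest or lowest rat stood far from the rest of its group. About 4.3 such groups would arise by chance at this threshold, which flags about 1 group in 20. Acat2 was at 9.25 in control-diet rat 9, with the next value at 9.09. Fdps was at 11.10 in low-diet rat 8, with the next at 10.90. Sqle was at 9.48 in high-diet rat 24, with the next at 9.64. Lss was at 9.50 in low-diet rat 5, one of the cage described above, with the next at 9.66. Cyp51 was at 10.94 in control-diet rat 13, with the next at 11.05. Each flag came from a different rat.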

How the results depend on the processing

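No member was called in any of 42 settings (smallest adjusted p 0.264). No paired analysis was possible because the subject numbers are unique to each rat. Differences here are on the log2 scale, and "nominal" means an unadjusted p under 0.05. Calls over all genes between high and low, 0 as reported, were 1 under quantile normalization, under centring on array medians and with the tail mark as covariate, 2 at an adjusted p under 0.31, and 30 once the 5371 values lying over 2 SD from a diet's mean were removed, where calls were 15 between high and control and 17 in the F-test. Nominal members between high and low were 3 with cage as a random block, 7 under centring and 9 with values over 2 SD removed. They were 0 without the cage of rats 5 and 6, an alternative added after seeing the data. Between high and control they were 1 under the stricter filter of 9.2, quantile normalization and array weights, and 4 under centring. Between low and control they were 0 under the stricter filter, centring, the cage block and a fit of only the diets compared, and 1 under quantile normalization, a trended prior and no moderation. In the F-test they were 5 with values over 2 SD removed and 1 without the cage. Removal of values over 2 SD narrows the spread within each diet by construction. All counts under that setting, the 30, 15 and 17 calls included, are therefore not comparable with the others. The stricter filter tested fewer enzymes: only Fdps, Fdft1, Sqle, Lss, Cyp51, Msmo1, Nsdhl, Ebp and Sc5d. Among these, those higher were 8 between high and low, 7 between high and control and 1 between low and control. Without the cage 7 enzymes and 4 fatty acid genes were higher on the low than on the control diet, and with array weights 3 fatty acid genes were higher on the high than on the control diet.

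Directions reversed for differences near 0: Srebf2 between high and low (-0.0084 under quantile normalization, -7.1e-05 with the cage block, -0.011 with weights, -0.030 without the cage), Apoe (-0.00037 between high and control with the cage block; with weights 0.011 between high and low and -0.0086 between low and control), Cyp46a1 between high and low with weights (-0.0056) and Insig1 between low and control by its other probe set (-0.016). The r of Npc1 with Npc2 was -0.419 over cage means. The cause of these changes was not tested.

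Leaving out each rat in turn, calls ranged from 0 to 3 between high and low (1 to 3 without low-diet rats 2 or 3, control-diet rat 17 or high-diet rats 22 or 25), 0 to 1 between high and control and 0 to 3 in the F-test. Nominal members ranged from 2 to 8, 1 to 4, 0 to 3 and 2 to 5 in high minus low, high minus control, low minus control and the F-test. Fatty acid genes higher on the low than on the control diet ranged from 0 to 1. Enzymes higher ranged from 13 to 15, 12 to 15 and 3 to 6 in the 3 comparisons. For high minus low, Soat1 ranged from -0.021 to 0.014, Srebf2 from -0.018 to 0.018, Apoe from -0.035 to 0.021 and Cyp46a1 from -0.014 to 0.019. For high minus control, Apoe ranged from -0.013 to 0.023 and Cyp46a1 from -0.0070 to 0.022. For low minus control, Insig1 ranged from -0.021 to 0.026, Apoe from -0.019 to 0.037 and Cyp46a1 from -0.0070 to 0.018.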
